A study of Mus musculus with 8 samples.

Results

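A set of 8 genes around the receptor Met was followed in the mouse distal colon: Macc1, the receptors Met and Mst1r, the ligand Hgf, the proteases St14 and Hgfac, and the inhibitors Spint1 and Spint2. They were taken by gene name from a table of read counts. All 8 genes were found among its 16130 genes, and all 8 passed the filter on low counts that kept 14311 genes. The set was chosen by the read counts of Macc1, which separated the 2 housing groups, and the other 7 genes joined it by function. The animals carried ApcMin, a truncating allele of the tumour suppressor Apc that gives intestinal adenomas, together with a heterozygous Tcf4 allele. Over 4 months one group was kept under enriched conditions (EE, n = 4 libraries) and the other in ordinary, non-enriched cages (NE, n = 4 libraries). Both alleles were shared by the 2 groups, so housing is the only labelled difference. The labels give no age or sex, and they do not say whether each library is a separate animal or whether adenoma tissue was included. All p-values therefore measure the spread between these libraries.

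Met is a receptor tyrosine kinase of epithelial cells, and its ligand, hepatocyte growth factor (Hgf), is made mainly by mesenchymal cells as an inactive single chain. Serine proteases such as matriptase (St14) and the HGF activator (Hgfac) cut that chain into the active form, and the Kunitz-type inhibitors Spint1 and Spint2 block these proteases. Mst1r is the close relative of Met that binds macrophage-stimulating protein, and MACC1 was named for colon cancer, where it is known as an activator of MET transcription. The pathway drives growth, migration and wound closure of epithelial sheets.

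The start regions of these genes differ in composition, and 4 of them are shown because Macc1, Met and the 2 inhibitors carry the results that follow. Sequences are from RefSeq on GRCm38.p6, read 5′ to 3′ upstream of the RefSeq start and trimmed where an annotated exon begins. RefSeq windows were matched for 7 of the 8 genes, with St14 the exception. Capitals mark matches on either strand to any of 5 motifs: AP-1 (TGANTCA), SP1 (GGGCGG), TCF/LEF (CTTTGAT), E-box (CACGTG) and ETS (CCGGAAG).
Macc1, chr12:119443160-119443401, plus strand: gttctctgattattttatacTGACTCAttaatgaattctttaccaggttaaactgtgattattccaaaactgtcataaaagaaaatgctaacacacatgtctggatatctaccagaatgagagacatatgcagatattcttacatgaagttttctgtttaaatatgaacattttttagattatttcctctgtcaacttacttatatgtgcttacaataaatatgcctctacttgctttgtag
Met, chr6:17463707-17463799, plus strand: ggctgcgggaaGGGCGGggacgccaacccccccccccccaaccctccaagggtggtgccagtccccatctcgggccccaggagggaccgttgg
Spint1, chr2:119237110-119237359, plus strand: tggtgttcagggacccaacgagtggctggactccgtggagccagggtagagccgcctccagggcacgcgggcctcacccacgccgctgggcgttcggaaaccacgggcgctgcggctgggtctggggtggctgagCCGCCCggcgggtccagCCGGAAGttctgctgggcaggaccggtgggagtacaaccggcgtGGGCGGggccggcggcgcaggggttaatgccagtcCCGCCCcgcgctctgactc
Spint2, chr7:29281978-29282227, minus strand: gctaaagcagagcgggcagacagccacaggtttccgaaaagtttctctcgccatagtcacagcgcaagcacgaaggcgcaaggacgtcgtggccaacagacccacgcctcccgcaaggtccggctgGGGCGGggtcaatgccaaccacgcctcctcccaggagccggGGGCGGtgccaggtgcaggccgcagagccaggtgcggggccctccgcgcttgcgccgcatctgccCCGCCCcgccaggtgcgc

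The window of Macc1 was 30% G and C over 250 bases and held 0 CpG dinucleotides. Those of Met, Spint1 and Spint2 were at 74%, 72.8% and 69.6% and held 24, 26 and 24 CpG. The median over 32841 such windows was 52.4%, with quartiles at 45.2% and 61.2%, so Macc1 lay below the lower quartile and the other 3 above the upper one. Macc1 had 1 AP-1 match, 230 bases before the start, and no match to the other 4 motifs. Met also had 1 AP-1 match, 54 bases before its start, and 1 E-box match at 126 bases, both in the part of its window not shown. AP-1 letters stood in 6.75% of all windows and E-box letters in 6.02%. Spint1 and Spint2 had 3 SP1 matches each, as did Met over its full window, and 32.7% of all windows held at least 1. Of the 3 in Met, 1 lies in the stretch shown. TCF/LEF letters, found in 3.21% of windows, were present only in the first of the 2 windows of Mst1r among the 9 windows of these genes. The RefSeq start of Macc1 is that of 1 of its 5 GENCODE transcripts, and the farthest of the other starts lies 129 kb upstream, so the window describes only that start. For Met and Spint2, 0 of 7 and 0 of 4 GENCODE transcripts start within 50 bases of the RefSeq start, and 157 of the 250 bases in the window of Met are annotated as exon, so these windows too are only those of the RefSeq starts.

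Sequencing depth was between 4735764 and 10586851 counts per library. Library EE 4 stood apart, at 46.3 on the first principal component against −14.2 to 6.36 for the other 7, and each fold change of the 8 genes is given with and without it. Smooth muscle and fibroblast markers were low in EE 4, at summed levels of 696.6 and 547.8 CPM (reads scaled by library size), against 2364 to 5760 and 1324 to 2162 CPM in the other libraries. EE 3, at 2364 CPM, also lay below the NE minimum of 3570 CPM for smooth muscle. With EE 4 included, all 10 smooth muscle genes had negative log2 fold changes (median −0.76), as had all 10 T and B cell genes (median −0.77). So had 7 of 9 plasma cell genes (median −0.69) and 11 of 12 genes of mature colonocytes (median −0.36), with 0 passing edgeR's test. For smooth muscle EE 1 and EE 2, at 4222 and 4464 CPM, lay within the NE range of 3570 to 5760 CPM. For plasma cells EE 2 and EE 3, at 3657 and 4097 CPM, lay within that of 3231 to 5322 CPM. Mature colonocyte genes summed to 7349 and 7830 CPM in EE 3 and EE 4, against 12866 to 18780 CPM in NE. EE 1 and EE 2, at 13807 and 18321 CPM, lay within that range. The part of these shifts in the results on the 8 genes was not tested. All 14 epithelial markers were tested, and their summed level was 9961 to 13022 CPM in NE against 8900 to 12999 CPM in EE. In this bulk RNA, fewer cells of a type and less RNA per cell cannot be told apart. The authors' deposited table has fold changes whose sign was opposite to EE minus NE for 97.8% of genes tested, and its header does not name the numerator, so EE and NE below mean the libraries labelled so.

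Macc1, the gene for which the group was chosen, was higher in every EE library than in every NE library. Macc1 (ENSMUSG00000041886, chromosome 12, 119314270 to 119469987 on GRCm38, plus strand) had 130, 148, 208 and 136 counts in NE 1 to NE 4 and 153, 151, 245 and 222 in EE 1 to EE 4. Scaled for library size these were 20.5, 21.2, 19.5 and 22.5 CPM in NE against 32.5, 28.9, 37.0 and 35.2 CPM in EE. The lowest EE value, in EE 2, therefore stood above the highest NE value, in NE 4. The log2 fold change was 0.68 (SE 0.13), a 1.60-fold difference. It was 0.66 without EE 4 and ran from 0.63 to 0.74 when any one of the 8 libraries was left out. No test is given for Macc1, because this separation chose it. In the authors' deposited table, made from the same 8 libraries, its log2 fold change was −0.54, with the numerator not named.

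Non-overlap of this kind was seen in 1 of the 8 genes, Macc1 itself, and in 4.89% of all genes tested. Since that contrast chose Macc1, nothing is read from the count. By edgeR's quasi-likelihood test with Benjamini-Hochberg adjustment 0 genes passed 0.05 of 14311 tested (0%), with 1357 at an unadjusted p under 0.05 (9.48%). DESeq2 called 16 of 16130 genes (0.0992%) and limma-voom called 0.

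**Figure D1:**
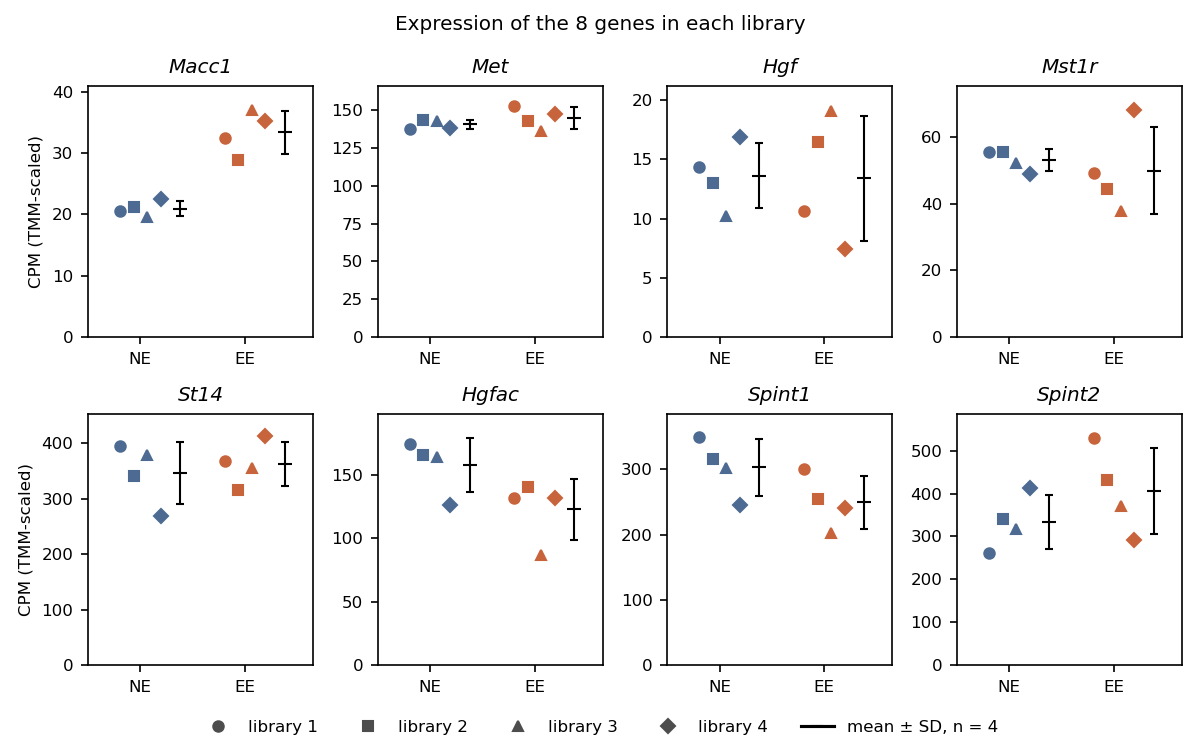
Scaled expression (CPM, vertical axes from 0) of the 8 genes in each NE and EE library, with the mean ± SD of 4 libraries as a bar to the right of each group. The 4 EE values of Macc1 (28.9 to 37.0 CPM) lie above its 4 NE values (19.5 to 22.5 CPM), and in the other 7 genes the groups overlap.

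Met itself, the receptor whose transcription MACC1 is known to raise, had the smallest relative spread of the 8 genes in both groups. Met (chromosome 6, 17463800 to 17573980, plus strand) stood at 137, 143, 143 and 138 CPM in NE 1 to NE 4 against 153, 142, 136 and 147 CPM in EE 1 to EE 4. The highest and the lowest of the 8 values both came from EE libraries, EE 1 and EE 3, and the groups overlapped. Its log2 fold change was 0.04 (SE 0.10, edgeR adjusted p = 0.876), and 0.04 without EE 4. The coefficient of variation of Met was 2.20% in NE and 4.83% in EE. For Macc1 it was 6.05% and 10.6%.

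Read counts of Macc1 and Met were compared within each library, which needs no scaling between libraries. The log2 ratio of Macc1 to Met was −2.74, −2.76, −2.87 and −2.62 in NE 1 to NE 4 and −2.23, −2.30, −1.88 and −2.07 in EE 1 to EE 4. The groups did not overlap in this ratio, as for Macc1 alone, and EE 2, the EE library with the least Macc1, was again closest to NE. The mean was −2.75 ± 0.10 in NE and −2.12 ± 0.19 in EE (SD, n = 4 per group), a difference of 0.63. Because Macc1 enters it, the ratio carries no test either.

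The second receptor, Mst1r (chromosome 9, 107906873 to 107920383, plus strand), was even in NE and uneven in EE. It was at 55.6, 55.6, 52.4 and 48.9 CPM in NE against 49.3, 44.4, 37.8 and 68.2 CPM in EE. EE 4 held the highest value of all 8 libraries and EE 3 the lowest. The log2 fold change was −0.09 (SE 0.17, edgeR adjusted p = 0.847), it was −0.28 without EE 4 (adjusted p = 0.722), and without EE 3 it changed sign, to 0.04. Mst1, the gene of its ligand, was low, at 1.38 ± 0.360 CPM in NE against 1.63 ± 0.529 CPM in EE (SD, n = 4 per group).

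Hgf, the ligand of Met, had the widest relative spread of the 8 genes. Hgf (chromosome 5, 16553495 to 16620152, plus strand) was at 14.4, 13.0, 10.2 and 16.9 CPM in NE 1 to NE 4 against 10.6, 16.5, 19.0 and 7.45 CPM in EE 1 to EE 4. EE 3 had the highest value and EE 4 the lowest, and the NE values lay between them. The coefficient of variation was 20.4% in NE and 39.6% in EE. The log2 fold change was −0.02 (SE 0.29, edgeR adjusted p = 0.989), and without EE 4 it was 0.20 (adjusted p = 0.868). Low counts, 47 to 126 per library, limit the precision, and part of the exons of Hgf, 484 bases, is shared with a provisional transcript on the same strand.

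Markers of fibroblasts, a mesenchymal cell type, took the same order as Hgf in the EE libraries. The summed level of 12 fibroblast genes was 1324, 2049, 2162 and 547.8 CPM in EE 1 to EE 4, and 1668 to 1886 CPM in NE. EE 4 was lowest and EE 3 highest in both. This order was not particular to fibroblasts. Macrophage genes summed to 298.3, 401, 511 and 218.6 CPM in EE 1 to EE 4, and plasma cell genes to 2484, 3657, 4097 and 1123 CPM. Of the 12 fibroblast genes 11 had a negative log2 fold change, with a median of −0.19, and 0 passed the test. Decorin (Dcn), a proteoglycan of fibroblast matrix, was at 60.3 CPM in EE 4 and 254 to 323 CPM in the other EE libraries. The part of these cell types in the values of Hgf was not tested.

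Of the proteases, matriptase did not differ between the groups beyond their spread. St14 (chromosome 9, 31089402 to 31131853, minus strand), a membrane-bound protease of epithelia, was at 395.5, 342, 378 and 268.5 CPM in NE against 369, 315, 355 and 412.5 CPM in EE. The lowest value was in NE 4 and the highest in EE 4. The log2 fold change was 0.07 (SE 0.15, edgeR adjusted p = 0.868), 0.01 without EE 4, and −0.04 without NE 4.

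The HGF activator gene Hgfac (chromosome 5, 35041509 to 35048461, plus strand) had lower values in most EE libraries, with overlap. It was at 174.5, 165, 164 and 126 CPM in NE 1 to NE 4 against 132, 140.1, 86.6 and 132 CPM in EE 1 to EE 4. NE 4 fell below 3 of the 4 EE libraries, and EE 3 was the lowest of all. The log2 fold change was −0.36 (SE 0.17, edgeR adjusted p = 0.520), −0.40 without EE 4 and −0.22 without EE 3. Hgfac is best known as a liver product. Of 6 liver markers 2 were tested here, Alb and Ttr, with a summed level of 30.0 to 51.9 CPM in NE against 33.5 to 82.6 CPM in EE. Apoa1, Fgb, Serpina1a and Ahsg were not among the genes counted. The log2 fold change was 1.51 (SE 0.56) for Alb and −0.09 (SE 0.20) for Ttr, with overlap of the groups in both. The part of liver RNA in the values of Hgfac was not tested.

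The 2 inhibitors leaned opposite ways. Spint1 (chromosome 2, 119237362 to 119249527, plus strand) was at 349, 316, 302 and 245 CPM in NE against 301, 255, 202 and 240.4 CPM in EE. Spint2 (chromosome 7, 29256323 to 29281912, minus strand) was at 260.4, 341, 317 and 412 CPM in NE against 529.8, 432.5, 370.2 and 291 CPM in EE. NE 4 was the lowest NE library for Spint1 and the highest for Spint2, while EE 1 was the highest EE library for both. The log2 fold changes were −0.28 (SE 0.16, edgeR adjusted p = 0.547) for Spint1 and 0.29 (SE 0.20, adjusted p = 0.606) for Spint2. Without EE 4 they were −0.26 and 0.42, with adjusted p of 0.756 and 0.722. Over all libraries left out in turn, Spint1 ran from −0.38 to −0.19 and Spint2 from 0.13 to 0.42, so each kept its sign. Neither difference passed the test. The epithelial markers summed to 12999, 11395, 8900 and 9978 CPM in EE 1 to EE 4, the same order as Spint1 in these libraries, and their part in its values was not tested.

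Within a library, the balance of protease to inhibitor depended on which inhibitor was taken. The log2 ratio of St14 to Spint1 was 0.18, 0.11, 0.32 and 0.13 in NE and 0.29, 0.31, 0.81 and 0.78 in EE. EE 3 and EE 4 stood above every NE library, and EE 1 and EE 2 fell within the NE range. The log2 ratio of St14 to Spint2 was 0.60, 0.00, 0.26 and −0.62 in NE and −0.52, −0.46, −0.06 and 0.50 in EE, with wide overlap. The log2 ratio of Spint1 to Spint2 had a mean of −0.13 ± 0.48 in NE and −0.68 ± 0.27 in EE (SD, n = 4 per group), and NE 4 (−0.75) lay among the EE libraries. The log2 ratio of Hgf to Met ran from −3.81 to −3.03 in NE and from −4.30 to −2.84 in EE. These ratios are descriptions, and no test was made on them.

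**Figure D2:**
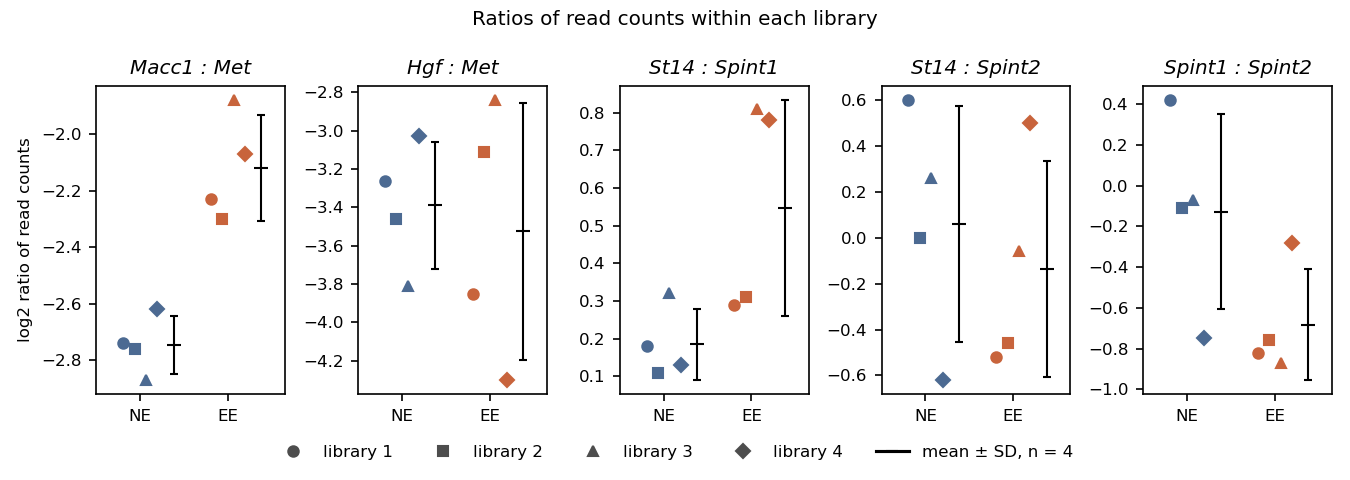
Log2 ratio of read counts of 2 genes within each library (vertical axes, each with its own range), with mean ± SD of 4 libraries beside each group. Macc1 to Met is the 1 ratio of the 5 without overlap, and for St14 to Spint1 only EE 3 and EE 4 (0.81 and 0.78) lie above the NE libraries.

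Levels were compared between genes per kilobase of merged exon (RPKM). Spint1 and Spint2 were highest, at 99.9 ± 17.5 and 81.1 ± 19.1 RPKM over the 8 libraries (SD, n = 8). St14 and Hgfac followed at 46.4 ± 6.05 and 41.1 ± 8.28 RPKM, then Met at 18.6 ± 0.712, Mst1r at 10.3 ± 1.79, Macc1 at 3.23 ± 0.844 and Hgf at 1.88 ± 0.546 RPKM. The inhibitors therefore stood above the proteases, the proteases above the receptors, and the ligand lowest. Spint1 and Spint2 changed places from library to library, as did St14 and Hgfac, so neither pair differs beyond its spread. The ranks of Met (5), Mst1r (6), Macc1 (7) and Hgf (8) were the same in all 8 libraries.

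**Figure D3:**
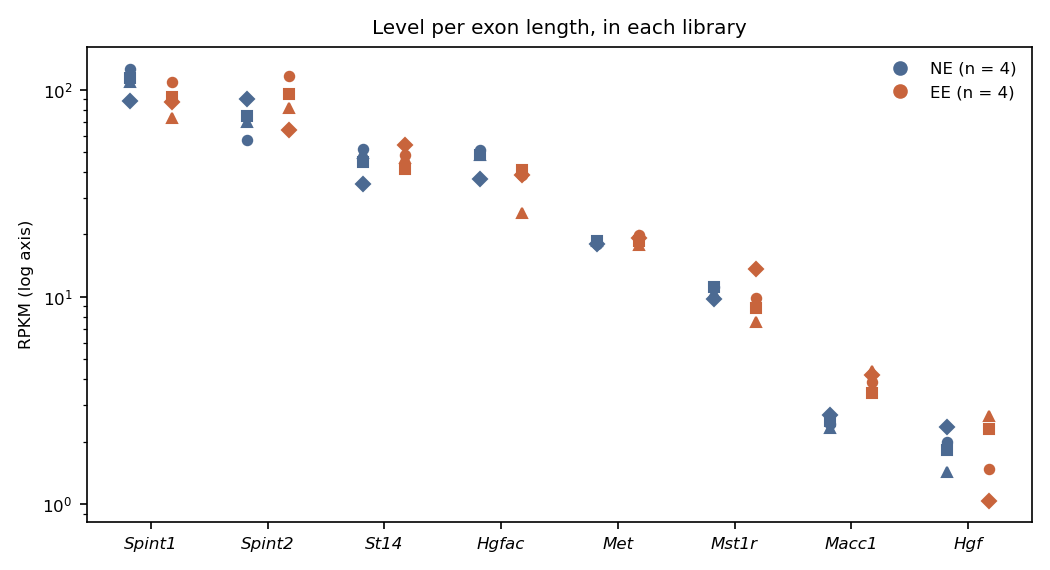
Level of each gene per kilobase of merged exon (RPKM, log axis) in each library, NE in blue and EE in orange, with genes ordered by their mean. The 2 inhibitors are highest and Macc1 and Hgf lowest, and only the pairs Spint1 with Spint2 and St14 with Hgfac exchange ranks.

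Genome position adds 1 gene to the picture of Macc1. Macc1 lies in a gene-poor stretch: within 1 Mb on either side 21 other genes are annotated, 4 of them protein-coding, and only Itgb8 had enough counts to be tested. Itgb8, an integrin subunit that pairs with the alpha V chain and activates latent TGF-beta (chromosome 12, 119158022 to 119238802, minus strand), lies 75.5 kb from Macc1. It was at 25.1, 23.7, 27.2 and 25.5 CPM in NE against 31.6, 41.7, 39.4 and 47.1 CPM in EE, again without overlap. EE 1 was the lowest EE library for Itgb8 and EE 2 for Macc1. Its log2 fold change was 0.66 (SE 0.14, edgeR adjusted p = 0.520), and it ranked 10 of 14311 genes by p. The window of 1 Mb was chosen after earlier results had shown both genes among those with the smallest p. Around Met, Hgf and St14 the same window held 9, 2 and 10 tested genes, of which 0 had groups that did not overlap. Around Mst1r, Hgfac, Spint1 and Spint2 there were 54, 22, 45 and 49 tested genes, of which 3, 2, 3 and 1 did not overlap, beside 4.89% over all genes tested.

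**Figure D4:**
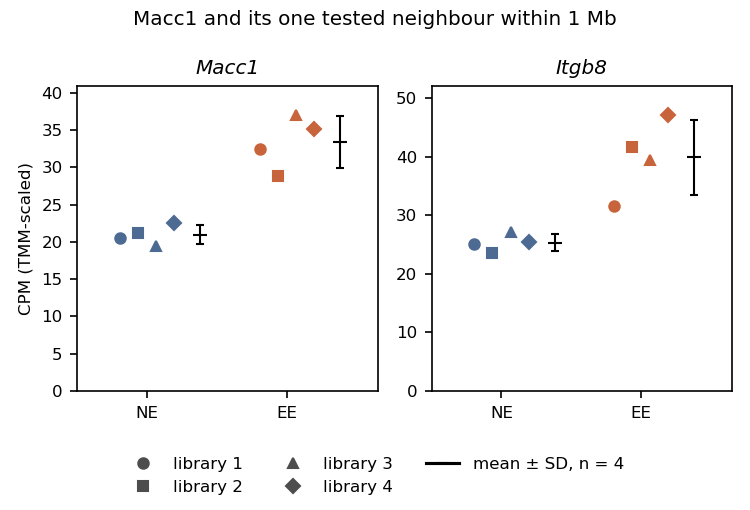
Scaled expression (CPM, vertical axes from 0) of Macc1 and Itgb8 in each library, with mean ± SD of 4 libraries. In both genes all 4 EE values lie above all 4 NE values, and the order of the EE libraries differs between them.

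Genes with library profiles most like those of Macc1, Met and Hgf were found by the mean absolute difference of centred log2 CPM over the 8 libraries. For Macc1, whose own mean absolute deviation was 0.331, these were Erich2 (0.078), the ubiquitin ligase gene Rad18 (0.087) and Rrm1 (0.088), the large subunit of ribonucleotide reductase. Rrm1 was at 99.2, 102, 102 and 113 CPM in NE against 135, 129, 175 and 152 CPM in EE, with EE 2 lowest and EE 3 highest in EE, as for Macc1. For Met they were Tada3 (0.014), the kinase gene Prpf4b (0.026) and Map3k7 (0.026), the kinase TAK1, which were as even as Met itself (0.040). For Hgf (0.349) they were Gimap9 (0.081), a GTPase gene of lymphocytes, Irak1bp1 (0.083) and Kbtbd3 (0.089).

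Cell division genes and Wnt target genes also stood at higher values in most EE libraries. The summed level of 20 cell division genes was 1369 to 1466 CPM in NE against 1577, 1578, 1955 and 2268 CPM in EE 1 to EE 4, all above NE. The sum of 17 Wnt targets was 1098 to 1453 CPM in NE against 1987, 1252, 2282 and 2932 CPM in EE 1 to EE 4. EE 2 thus lay within the NE range for the Wnt targets. It was the lowest EE library for them, as it was for Macc1, which was chosen for lying above NE in every EE library. The highest was EE 4 for the Wnt targets and EE 3 for Macc1. Both lists were drawn up with their direction in these data known, and their part in the values of Macc1 was not tested.

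Other genes of the pathway were read from lists by role, of which 0 members passed edgeR's test over all genes. Over all 14311 genes the median log2 fold change was 0.00, with 7200 positive. Among further activating proteases and their inhibitors 11 were tested, 6 with positive and 5 with negative values and a median of 0.09. Klk1, a tissue kallikrein, was at 847 ± 185 CPM in NE against 530.2 ± 158 CPM in EE (log2 fold change −0.68, SE 0.23, adjusted p = 0.520). Plat and Plau, the tissue and urokinase plasminogen activators, were at 216 ± 68.5 and 43.7 ± 17.8 CPM in NE against 308 ± 106 and 54.4 ± 16.3 CPM in EE (SD, n = 4 per group).

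Among co-receptors, the second ligand and sheddases 14 were tested, 10 with positive values, with a median of 0.22. Groups did not overlap in 2 of them. Sdc1, a heparan sulfate proteoglycan, was higher in each EE library, but only just, at 437.5 CPM in EE 2 against 436.1 CPM in NE 4. Its log2 fold change was 0.16 (SE 0.12, edgeR adjusted p = 0.609). Nrp2, a co-receptor of semaphorins and growth factors, was lower in each EE library. Nrp2 was at 99.95 ± 10.6 CPM in NE against 75.8 ± 10.6 CPM in EE (log2 fold change −0.40, SE 0.13, edgeR adjusted p = 0.520). Over all genes such non-overlap was seen in 2.87% toward higher and 2.02% toward lower values in EE. Adam10, a protease that sheds surface receptors, was at 282 ± 32.5 and 350.0 ± 33.8 CPM, and Cd44, whose variant isoforms present Hgf to Met, at 217 ± 32.2 and 272 ± 30.1 CPM.

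Signalling genes next to the receptor spread to both sides of 0. Of 20 adaptors and proximal kinases 11 had positive values, with a median of 0.03, and groups did not overlap in 1, Ptk2, the focal adhesion kinase (89.9 ± 5.18 CPM in NE against 106 ± 3.54 CPM in EE). That is close to the 4.89% seen over all genes. Plcg1, a phospholipase recruited by Met, was at 55.2 ± 5.44 and 76.9 ± 26.4 CPM. Of 15 genes listed as negative regulators 9 had positive values, with a median of 0.12, and groups overlapped in all 15. Sh3kbp1, an adaptor in receptor uptake, was at 44.3 ± 3.64 and 55.6 ± 9.97 CPM. Decr1, at 104.5 ± 17.3 and 82.7 ± 25.8 CPM, codes for a mitochondrial enzyme of fatty acid oxidation and is not a known regulator of Met. The counts and the median of this list include it.

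Genes that respond to ERK, the kinase below Met and other receptors, leaned toward higher values in EE. Of 14 tested 13 were positive, with a median log2 fold change of 0.31, and groups did not overlap in 4, all higher in EE, beside 2.87% of all genes. This list too was drawn up with earlier results of these data known. The ERK phosphatase gene Dusp4 was at 34.9 ± 3.51 CPM in NE against 62.6 ± 15.3 CPM in EE, and Phlda1 at 43.4 ± 8.65 and 84.2 ± 28.4 CPM (SD, n = 4 per group). In Phlda1 the groups overlapped, with EE 2, at 51.7 CPM, below NE 4, at 55.4 CPM. DESeq2 called Dusp4 (adjusted p = 0.04555), while its edgeR adjusted p was 0.520. Spry2, an inhibitor of receptor kinase signalling, was the 1 negative member, at −0.14.

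**Figure D5:**
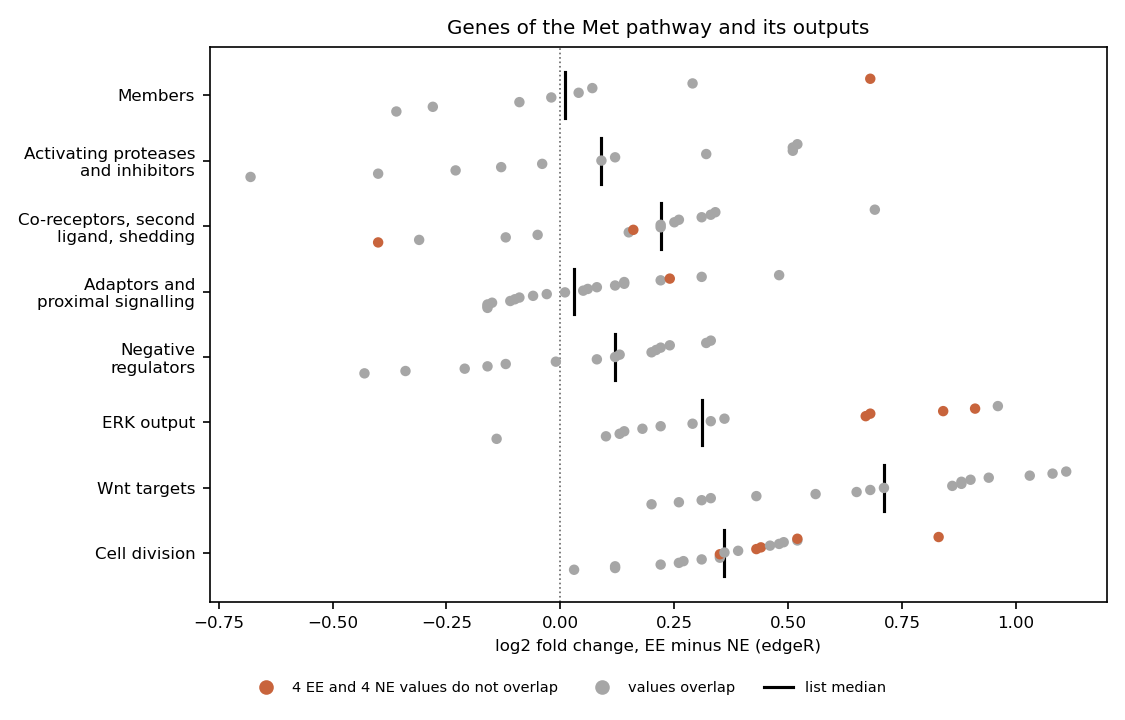
Log2 fold change (EE minus NE, horizontal axis) of each tested gene in the 8 lists, with the list median as a black line and genes whose 4 EE and 4 NE values do not overlap in orange. Medians of the members, proteases, adaptors and negative regulators lie within 0.12 of 0, and those of ERK output, Wnt targets and cell division at 0.31, 0.71 and 0.36.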

How the data were processed

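RNA from mouse distal colon was read as strand-preserving, ribosomal RNA-depleted libraries, per the labels' protocols. Novoalign 2.08.01, DESeq 1.14.0 and genome build mm10 are named in the submitters' processing notes. How reads were counted, on which annotation and whether by strand, is not given in the sources used here. The authors deposited raw read counts per gene for 8 libraries, plus the log2 fold change and FDR (adjusted p-value) of their own comparison, per the file headers. Of 16130 identifiers 15948 were found in GENCODE M21 (GRCm38), and 167 blank, repeated or date-like symbols were replaced by identifiers.

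The main test used edgeR 4.0.16 under R 4.3.3 (filterByExpr, TMM, robust quasi-likelihood test, Benjamini-Hochberg adjustment over 14311 genes, threshold 0.05, no covariate). CPM are scaled by TMM library size, a prior count of 2 was added for log2 CPM, the SE is the log2 fold change divided by the square root of F, and RPKM divide CPM by merged exon length. On counts simulated for EE against NE (14139 genes tested) 66 of 99 genes changed 2-fold and 90 of 97 changed 4-fold were called, with 10 false calls. Each gene was drawn independently, without an outlying library or shifts shared between genes. The shares called may therefore not hold for the real libraries. Alternatives were DESeq2 1.42.0 (no adjusted p for 22 genes), limma-voom (limma 3.58.1), other scaling and filters, the replicate number as a block and each library left out. Named genes were the 8 members, up to 2 per list with the smallest p, and the 3 nearest profiles of Macc1, Met and Hgf; the remaining names were chosen after their values were seen. A gene that this rule took is not reported here. The members and lists were chosen with earlier results of these data known.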

Additional observations from a re-analysis of the deposited data

Results flagged for a closer look

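Hgfac in library EE 3, at 86.6 CPM, lay far below the other 3 EE libraries (132 to 140.1 CPM). Its gap to the nearest of them was 0.846 of the range of the group, above Dixon's critical value for 4 samples at 95%. Of the 16 gene and group combinations examined, 1 was so marked, and chance marks about 1 in 20.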

How the results depend on the processing

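The log2 fold changes of Met, Hgfac, Spint1 and Spint2 kept their sign under all 15 alternatives. The values ran from 0.02 to 0.08, −0.45 to −0.22, −0.38 to −0.19 and 0.13 to 0.42. Those of Hgf, Mst1r and St14 changed sign when single libraries were left out, at −0.24 to 0.20, −0.28 to 0.04 and −0.04 to 0.14; for Hgf these were NE 1, NE 4, EE 1 and EE 4, for Mst1r EE 3 and for St14 NE 4, and the cause was not tested. The log2 fold change of Macc1 ran from 0.63 to 0.74, and its sign could hardly change, because its separation chose it. For the same reason no test is given for Macc1 under any of the 15 alternatives. The count of genes past the threshold, 0 with edgeR, was 16 with DESeq2 and 0 to 1 with a library left out (1 without EE 2). The count of genes whose groups do not overlap, 700, was 909 to 2475 with a library left out, where fewer values need to separate. With the replicate number as a block 0 genes passed. Libraries with the same number had correlated deviations of 0.25, 0.01, −0.18 and −0.04, and 1 of 4 correlated best with its own number. No pairing by number was seen, but a check on 4 libraries a group cannot exclude one. Counts of 47 to 126 for Hgf and 130 to 245 for Macc1 limit the precision of both.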
